A study of Homo sapiens with 12 samples.

Results

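A set of 9 genes read as markers of neuroendocrine differentiation in prostate cancer (PCa) was followed in 12 RNA-seq libraries from the PCa cell lines LNCaP and 22Rv1. They are SYP, CHGA, CHGB, SCG2, SCG3, NCAM1, INSM1, NKX2-1 and REST, chosen by name, and they are 9 of the 60660 genes in the count tables. LNCaP is an androgen-sensitive line that was grown from a nodal metastasis. 22Rv1 comes from a relapsed prostate xenograft and also carries androgen receptor splice variants. All cells were deprived of androgen by growth in CS-FBS, a bovine serum stripped of steroids with charcoal and added at 10%, and were transfected with a control RNA oligo (NC-mimic) or with a synthetic copy of the PIWI-interacting RNA piR-4447944 (piR-4447944 mimic). This made 4 groups of 3 libraries. Each line is a single cultured line, so a difference between LNCaP and 22Rv1 cannot be told apart from any difference in how the lines were grown or handled. The labels do not say whether the 3 libraries of a group came from separate cultures, so the p-values measure the spread between these libraries, which may be technical.

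Neuroendocrine cells store peptide hormones in dense-core granules and release them on demand. Prostate tumours can take on this phenotype after long androgen deprivation, with loss of luminal genes such as KLK3 and gain of granule and neuronal genes. REST is a zinc finger repressor that keeps neuronal genes silent outside neurons by binding the RE1 element and recruiting corepressors. The splicing factor SRRM4 promotes a truncated form of REST that represses poorly, and the gene-level tables used here do not separate REST isoforms.

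The libraries held between 12161091 and 22179601 counts. The luminal markers fitted the prostate label, since none of the 10 on the list stayed under 1 TPM (RSEM's transcript abundance, scaled to gene length and library size) in all libraries of any group. KLK3, which encodes prostate-specific antigen, lay between 1828 and 2268 TPM in the LNCaP libraries and between 24.8 and 53.4 TPM in 22Rv1. KRT8, a luminal keratin, lay between 347 and 821 TPM over all 12. The replicate 3 libraries of 22Rv1 stood apart from their own groups. Their counts differed from the other libraries of the group by a chi-square of 37.7 to 106.2 per gene, against 3.43 to 15.0 for all other pairs of one group, so the mimic effects in 22Rv1, and the counts called between the lines, are given with and without them.

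The RE1 element was searched within 5000 bases either side of each gene start, on both strands, as TTCAGCACC, then 2 free bases, GGACAG, 1 free base and GCC. The matches are shown because they mark which of the 9 genes carry the letters that REST is known to bind. Capitals mark the fixed bases that match, and the sequences are from hg38 in the direction of the gene.
CHGA: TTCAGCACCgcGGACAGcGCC
CHGB: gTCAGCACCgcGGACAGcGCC
SYP: TcCAGCACCgtGGACAGaGCC
The CHGA match is at chr14:92923523-92923543 on the plus strand, in an intron, with its centre 383 bases after the gene start and 0 mismatches. The CHGB match is at chr20:5911704-5911724 on the plus strand, in an intron and 204 bases after the start, with 1 mismatch. The SYP match is at chrX:49200122-49200142 on the minus strand, in an intron and 86 bases after the start, with 1 mismatch. At most 1 mismatch was met by 3 of the 9 genes and by 78 of 20046 protein-coding genes (0.389%), and 0 mismatches by 1 of the 9 and by 19 of all (0.0948%). The other 6 genes held no match with up to 2 mismatches, which 236 of all genes (1.18%) did.

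SCG3 was one of those 6, but its RefSeq promoter window (GRCh38.p14, from 250 bases before to 50 after the start) held the same TTCAGCACC and GGACAG with 8 bases between them, at chr15:51681511-51681537 on the plus strand.
SCG3: TTCAGCACCcacagggcGGACAGcgct
TTCAGCACC followed by GGACAG within 20 bases was found in the windows of 14 of 27305 gene symbols (0.0513%) and in 1 of the 5 markers that the window table covers. These matches describe letters only. Binding of REST was not measured.

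SYP encodes synaptophysin, a membrane protein of small secretory vesicles and a standard stain for neuroendocrine tumours (hg38 chrX:49187815-49200218). In LNCaP it stood at 0.61, 0.74 and 0.87 TPM with NC-mimic and at 0.91, 0.65 and 1.75 TPM with piR-4447944 mimic. In 22Rv1 it stood at 58.9, 66.1 and 58.5 TPM with NC-mimic and at 62.5, 66.9 and 60.2 TPM with piR-4447944 mimic. Every 22Rv1 library was far above every LNCaP library, and the 6 values within 22Rv1 lay close together. SYP-AS1, the antisense gene that overlaps it, had 0 counts in all libraries.

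CHGA encodes chromogranin A, the granule protein that is also measured in blood as a neuroendocrine marker (hg38 chr14:92923150-92935285). LNCaP had 3, 0 and 0 counts with NC-mimic and 1, 3 and 3 counts with piR-4447944 mimic. In 22Rv1 CHGA was low and uneven, at 2.14, 1.34 and 14.04 TPM with NC-mimic and 0.87, 1.78 and 2.87 TPM with piR-4447944 mimic. Replicate 3 was the highest library of both 22Rv1 groups, and the 2 groups overlapped. CHGB, its relative chromogranin B (hg38 chr20:5911510-5925353), had 1 count in the 3 LNCaP NC-mimic libraries and 0 in the 3 with piR-4447944 mimic, where 0 allows up to 0.062 CPM, the count scaled to library size. In 22Rv1 it reached 20.4, 16.2 and 37.0 TPM with NC-mimic and 17.4, 21.6 and 40.8 TPM with piR-4447944 mimic. Here too replicate 3 was the highest library of each group.

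SCG2 encodes secretogranin II, the precursor of secretoneurin (hg38 chr2:223596940-223602361). With NC-mimic it was the granin with the smallest ratio between the lines, at 0.51, 0.19 and 0.27 TPM in LNCaP against 4.5, 1.57 and 2.41 TPM in 22Rv1. With piR-4447944 mimic the LNCaP libraries had 0.12, 0.07 and 0.17 TPM and the 22Rv1 libraries 2.28, 3.62 and 2.94 TPM. The LNCaP values with the 2 mimics did not overlap in TPM but rest on 15 and 10 counts in all, and they overlapped in CPM. SCG3 encodes secretogranin III, which binds chromogranin A to the granule membrane (hg38 chr15:51681492-51721026). LNCaP had 4 counts over the 3 NC-mimic libraries and 1 count over the 3 with piR-4447944 mimic. 22Rv1 had 25.0, 28.6 and 38.0 TPM with NC-mimic and 27.1, 27.3 and 27.2 TPM with piR-4447944 mimic. The mimic libraries of 22Rv1 lay inside the range of the NC-mimic libraries.

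NCAM1 and INSM1 were near 0 in both lines. NCAM1 encodes CD56, an adhesion molecule of neural cells (hg38 chr11:112961275-113278436). LNCaP had 4, 6 and 0 counts of it with NC-mimic and 3, 2 and 4 counts with piR-4447944 mimic. 22Rv1 had 3, 1 and 0 counts with NC-mimic and 0 counts in each library with piR-4447944 mimic. INSM1 encodes a zinc finger factor that drives granule genes in endocrine cells (hg38 chr20:20368104-20370949), and it had 2 counts in each LNCaP group and 0 in all 22Rv1 libraries. The 0 counts of INSM1 allow up to 0.06 CPM in the NC-mimic group and 0.0632 CPM in the mimic group of 22Rv1. These intervals and limits cover counting error only. Neither gene passed the low-count filter. The one case in which the groups did not overlap was NCAM1 with piR-4447944 mimic, 9 counts in LNCaP against 0 in 22Rv1, where the exact two-sided permutation test gave p = 0.1, the smallest it can give. No other difference was detectable for them at this depth.

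NKX2-1 encodes a homeobox factor of lung and thyroid that also marks small cell tumours (hg38 chr14:36516392-36521149). LNCaP had 1 count over the 3 NC-mimic libraries and 4 counts over the 3 with piR-4447944 mimic. 22Rv1 had 1.6, 1.14 and 4.47 TPM with NC-mimic and 1.01, 0.95 and 8.82 TPM with piR-4447944 mimic. Replicate 3 was the highest library of both 22Rv1 groups by a wide margin. The overlapping antisense gene NKX2-1-AS1 had 0 to 37 counts in 22Rv1, with the highest value in the same piR-4447944 mimic replicate 3. In 22Rv1 NC-mimic replicates 1 and 3 both genes had fractional expected counts, 56.74 and 90.52 for NKX2-1 and 6.26 and 4.48 for NKX2-1-AS1. Whether the 2 genes shared reads was not tested, and whether the counting used strand is not given in the sources used here.

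REST was the only one of the 9 genes with a clear level in LNCaP (hg38 chr4:56907876-56966808). It stood at 17.1, 18.4 and 16.2 TPM with NC-mimic and at 18.4, 19.3 and 18.9 TPM with piR-4447944 mimic. In 22Rv1 it stood at 20.6, 17.3 and 14.9 TPM with NC-mimic and at 23.3, 19.6 and 31.4 TPM with piR-4447944 mimic. The NC-mimic libraries of the 2 lines overlapped. In LNCaP the mimic libraries were all above the NC-mimic libraries in TPM by a narrow gap, yet in CPM the groups overlapped, at 91.0, 92.1 and 79.6 CPM for NC-mimic against 85.5, 84.2 and 92.0 CPM. TPM divides by a transcript length that RSEM estimates in each library, and for REST in LNCaP this effective length was 6227 to 7031 bases with NC-mimic and 5694 to 6328 bases with piR-4447944 mimic.

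**Figure D1:**
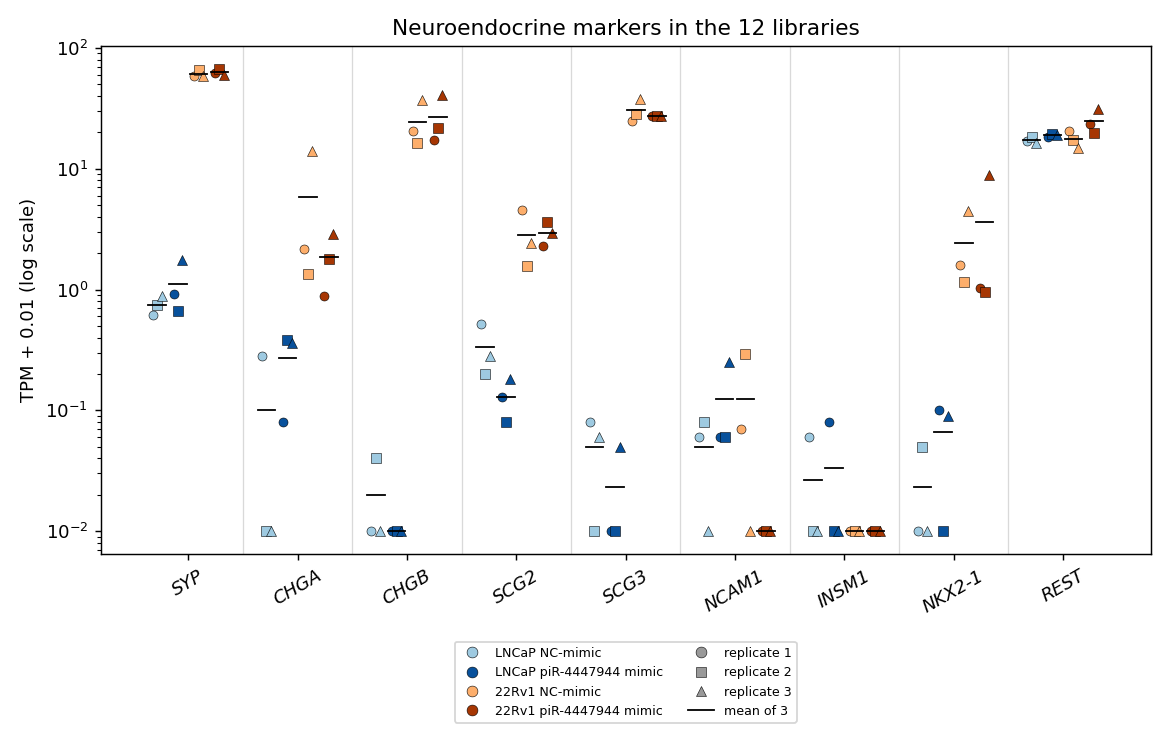
TPM of the 9 genes in each of the 12 libraries, plotted as TPM + 0.01 on a log axis, with 1 point per library, colour for the group, shape for the replicate number and a bar at the mean of 3. SYP, CHGA, CHGB, SCG2, SCG3 and NKX2-1 are higher in all 22Rv1 libraries than in any LNCaP library, NCAM1 and INSM1 lie near 0 in both lines, and REST lies between 14.9 and 31.4 TPM throughout.

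By mean TPM, which compares genes per length, REST led in LNCaP with NC-mimic at 17.2 ± 1.11 (SD, n = 3), and SYP followed at 0.74 ± 0.13. The other 7 genes had means of 0.01 to 0.32 TPM. In 22Rv1 with NC-mimic the order was SYP at 61.2 ± 4.30, SCG3 at 30.5 ± 6.68, CHGB at 24.5 ± 11.01, REST at 17.6 ± 2.89, CHGA at 5.84 ± 7.11, SCG2 at 2.83 ± 1.51 and NKX2-1 at 2.40 ± 1.81 TPM. SYP was separated from SCG3 and REST from CHGA by gaps between their libraries. SCG3, CHGB and REST overlapped with their neighbours in the order, and CHGA, SCG2 and NKX2-1 overlapped with one another.

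22Rv1 was then compared with LNCaP within each mimic, to ask at which level each line started from. With NC-mimic, SYP was 78.0 times as high in 22Rv1 by summed counts scaled to library size (95% counting interval 61.0 to 101.5). SCG3 was 918-fold higher (358 to 3372) and CHGA 101-fold higher (34.2 to 493). SCG2 was 16.2-fold higher (9.58 to 29.4). Among these 3 granins SCG2 had the smallest ratio, and the intervals of SCG3 and CHGA overlapped. For CHGB and NKX2-1 the LNCaP reference was a single count, which gave ratios of 2157 (387 to 85230) and 197 (34.9 to 7812). REST differed by a ratio of 1.10 (1.05 to 1.14), where the counting interval leaves out the spread between libraries.

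With p-values from edgeR's quasi-likelihood test, adjusted by Benjamini-Hochberg over 17497 genes, SYP differed by a log2 fold change of 6.29 (SE 0.18, adjusted p = 2.546e-07) and SCG3 by 9.75 (SE 0.39, adjusted p = 9.102e-07). CHGB followed with 10.67 (SE 0.64, adjusted p = 6.429e-06), SCG2 with 3.91 (SE 0.47, adjusted p = 0.000213), NKX2-1 with 7.29 (SE 0.99, adjusted p = 0.0004184) and CHGA with 6.78 (SE 1.44, adjusted p = 0.004031). REST did not pass the test, with 0.09 (SE 0.13, adjusted p = 0.580). Thus 6 of the 9 genes were called higher in 22Rv1, where 30.9% of all genes tested were called higher and 27.5% lower. Of these 6, all but SYP passed the low-count filter only through 22Rv1 (2 of the 9 genes passed in LNCaP alone and 7 in 22Rv1 alone), so their count describes the lines and supports nothing further. Without the NC-mimic replicate 3 library of 22Rv1, 6 were called as well, where 33.7% of all genes were called higher and 32.5% lower. The log2 fold change of CHGA was then 4.77 and that of NKX2-1 6.52, with adjusted p-values of 0.0005103 and 3.023e-05. Without LNCaP NC-mimic replicate 1 CHGA came to 9.85, and without LNCaP NC-mimic replicate 2 CHGB came to 12.46 and NKX2-1 to 9.07, in each case the library that held all or the only count of the gene in that group. The fitted fold changes of genes near 0 in LNCaP depend on the prior count.

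With piR-4447944 mimic the same 6 genes were higher in 22Rv1, and REST was as well, so 7 of 9 were called where 28.2% of all 17283 genes tested were called higher and 24.2% lower. SYP was 62.5-fold higher (49.6 to 80.1) and SCG2 24.0-fold higher (12.8 to 50.7). CHGA was 11.5-fold higher (5.34 to 29.6). CHGB was at least 698-fold higher, against the limit of 3 counts over the LNCaP group. REST was 1.42 times as high, with a log2 fold change of 0.52 (SE 0.17, edgeR adjusted p = 0.0342). The REST groups did not overlap in TPM or CPM, and an exact two-sided permutation test gave p = 0.1, the smallest that 3 against 3 libraries can give. This call was lost on the log2(TPM + 1) scale (limma, adjusted p = 0.183, and 0.1999 with log2(TPM + 0.1)), with an adjusted p of 0.0824 to 0.116 when any 1 LNCaP library was left out, and with 0.0509 without 22Rv1 replicate 1, while without 22Rv1 replicate 3 the log2 fold change was 0.32 (adjusted p = 0.002863) and 7 of the 9 genes were called, where 35.4% of all genes were called higher and 34% lower. The 2 comparisons of the lines share no libraries.

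**Figure D2:**
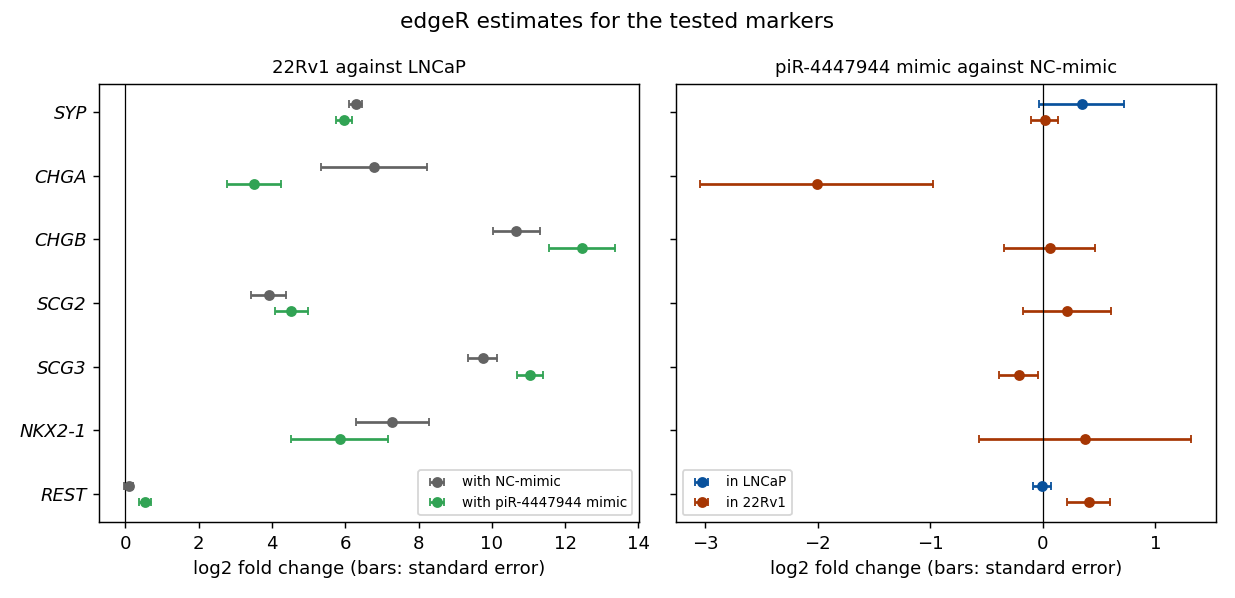
edgeR log2 fold changes of the 7 tested genes, with bars of 1 standard error. The left panel sets 22Rv1 against LNCaP with each mimic, where REST is nearest to 0 (0.09 and 0.52) and CHGB and SCG3 are farthest; the right panel sets piR-4447944 mimic against NC-mimic within each line, where only SYP and REST could be tested in LNCaP and CHGA in 22Rv1 has the widest bar.

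The genes around these markers were followed in lists. Among genes of granule cargo, processing and release, 9 of the 14 tested (of 21) were higher in 22Rv1 with NC-mimic and 0 lower, with a median log2 fold change of 1.73 against 0.01 for all genes, of which 30.9% were called higher and 27.5% lower. VGF, a secreted granule peptide precursor, stood at 0.49 to 0.68 TPM in LNCaP with NC-mimic and at 334, 339 and 1124 TPM in 22Rv1 (log2 fold change 10.15, SE 0.70, adjusted p = 1.172e-05). UNC13A, which primes vesicles for release, stood at 0.06 to 0.19 TPM against 78.9, 63.3 and 69.6 TPM (8.49, SE 0.25, adjusted p = 2.801e-07). SNAP25, a SNARE protein of vesicle fusion, had 0 counts in LNCaP with NC-mimic and 11.6, 13.1 and 31 TPM in 22Rv1, at least 438-fold higher. With piR-4447944 mimic 9 of 14 were higher and 1 lower, beside 28.2% and 24.2% of all genes. Of the 14 genes, 13 passed the low-count filter in LNCaP alone. Without replicate 3 of 22Rv1 9 were higher and 3 lower with each mimic, beside 33.7% and 32.5% of all genes with NC-mimic and 35.4% and 34% with piR-4447944 mimic.

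Transcription factors of neuroendocrine and neural cells did not move in one direction. Of the 7 tested (of 16) 3 were higher and 4 lower in 22Rv1 with NC-mimic, with a median log2 fold change of -1.34. Of all genes tested 30.9% were called higher and 27.5% lower. Of the 3 higher, 2 passed the low-count filter only through 22Rv1. The 4 lower all passed in LNCaP alone, and LHX2 rests on 370 counts there against 21 in 22Rv1. Of the 16 genes 6 passed in LNCaP alone and 7 in 22Rv1 alone, 4 of these not in LNCaP. Some thus passed only through LNCaP, so the counts both ways and the median are partly set by the filter. POU3F2, a neural POU factor, rose from a mean of 0.033 to 2.87 TPM, ISL1 from 0.11 to 1.55 TPM and ONECUT2 from 2.35 to 6.94 TPM. LHX2 was lower, at 0.37 against 4.66 TPM, as were MYT1 at 0.67 against 6.71 TPM and HES6, an inhibitor of HES1, at 26.7 against 70.5 TPM. NEUROD1, a proneural factor of some neuroendocrine tumours, had 0 counts in all 12 libraries and was named after its values were seen. With piR-4447944 mimic 4 of 8 were higher and 3 lower, beside 28.2% and 24.2% of all genes. Without replicate 3 of 22Rv1 the counts were 4 higher and 5 lower of 9 with NC-mimic and 5 and 4 of 9 with the mimic. The shares of all genes were then 33.7% and 32.5% with NC-mimic and 35.4% and 34% with the mimic.

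Other tumour markers and peptides were mixed as well, with 5 of the 8 tested (of 10) higher and 1 lower with NC-mimic, and 2 of 5 higher and 1 lower with piR-4447944 mimic. Of all genes 30.9% were called higher and 27.5% lower with NC-mimic, and 28.2% and 24.2% with the mimic. CALCA, NTS and UCHL1, 3 of the 5 called higher with NC-mimic, passed the low-count filter only through 22Rv1, so the count is partly set by the filter, and 2 of the other 5 were higher. Without replicate 3 of 22Rv1 the counts were 4 higher and 2 lower of 8 with NC-mimic and 5 and 2 of 8 with the mimic. The shares of all genes were then 33.7% and 32.5% with NC-mimic and 35.4% and 34% with the mimic. CALCA, which encodes calcitonin and its related peptide, had 0 counts in LNCaP and stood at 5.82, 5.16 and 164.2 TPM in 22Rv1 with NC-mimic, at least 472-fold higher but carried mostly by replicate 3. NTS, the neurotensin gene, had a mean of 0.14 against 1.14 TPM and UCHL1, a neuronal ubiquitin hydrolase, 0.84 against 3.55 TPM. DDC, which makes dopamine and serotonin, went the other way, at 510 to 614 TPM in LNCaP against 9.69, 11.6 and 1.49 TPM in 22Rv1 (log2 fold change -4.33, SE 0.52, adjusted p = 0.0002185).

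The same comparison was made for genes that REST is known to repress and for the partners of REST. Of the REST-repressed neuronal genes, all 11 tested (of 14) were higher in 22Rv1 with each mimic, with a median log2 fold change of 5.56 in the NC-mimic libraries and 5.48 in the others. These medians, and those of the other lists, stayed the same with genes at 0 in LNCaP set to the limit of 3 counts. That step could not have changed them, since the genes at the limit lay above the median of their list either way. Of these 11, 6 passed the low-count filter in 22Rv1 and not in LNCaP, so the count and the median are partly set by the filter. The other 5, named after their values were seen (CELSR3, UNC13A, SYT4, GRIN1 and TUBB3) had a median of 3.04 with NC-mimic and 2.97 with the mimic. Of all genes tested 30.9% and 28.2% were called higher. Without replicate 3 of 22Rv1 all 11 were higher with each mimic, with medians of 4.70 and 3.95, beside 33.7% and 35.4% of all genes. SNAP25, SYT4 and UNC13A are also on the granule list. SYN1, a synaptic vesicle phosphoprotein, and CHRM4, a muscarinic receptor, had 0 counts in LNCaP with NC-mimic. In 22Rv1 SYN1 stood at 5.92, 4.63 and 9.07 TPM, at least 193-fold higher, and CHRM4 at 5.86, 10.3 and 17.7 TPM, at least 186-fold higher. The list was not uniform in level, since STMN2 had 0 counts in all 12 libraries and GRIN1, a glutamate receptor subunit, was already at 7.62 to 9.8 TPM in LNCaP with NC-mimic against 43.6 to 58.5 TPM in 22Rv1. STMN2 was named after its values were seen.

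The corepressors and regulators of REST gave 5 higher and 3 lower of 12 tested with NC-mimic, and 5 higher and 2 lower with piR-4447944 mimic. Of all genes 30.9% were called higher and 27.5% lower with NC-mimic, and 28.2% and 24.2% with the mimic. Whether the counts of this list depart from these shares was not tested. SRRM4, 1 of the genes called higher, passed the low-count filter only through 22Rv1. Without replicate 3 of 22Rv1 the counts were 7 and 3 with each mimic, beside 33.7% and 32.5% of all genes with NC-mimic and 35.4% and 34% with the mimic. SRRM4 had 0 counts in all 6 LNCaP libraries. In 22Rv1 it stood at 57.8, 59.2 and 81.5 TPM with NC-mimic and at 59.9, 62.5 and 116.8 TPM with piR-4447944 mimic, which was at least 6640-fold and 7242-fold higher against the limit of 3 counts per group. In counts, the 22Rv1 NC-mimic libraries held 7438, 5585 and 4904 of SRRM4, while REST in the same libraries did not pass the test against LNCaP. RCOR2, a neural form of the CoREST corepressor, was at a mean of 3.03 TPM in LNCaP and 10.7 TPM in 22Rv1 with NC-mimic, and CTDSP1, a phosphatase that stabilises REST, at 53.2 and 93.6 TPM. The CTDSP1 mean in 22Rv1 covers 106.8, 117.6 and 56.3 TPM, so replicate 3 stood near the LNCaP libraries at 50.2 to 54.8 TPM. RCOR1, USP7 and KDM1A were lower in 22Rv1, with log2 fold changes of -0.62, -0.38 and -0.32. Whether SRRM4 altered the splicing of REST was not tested.

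**Figure D3:**
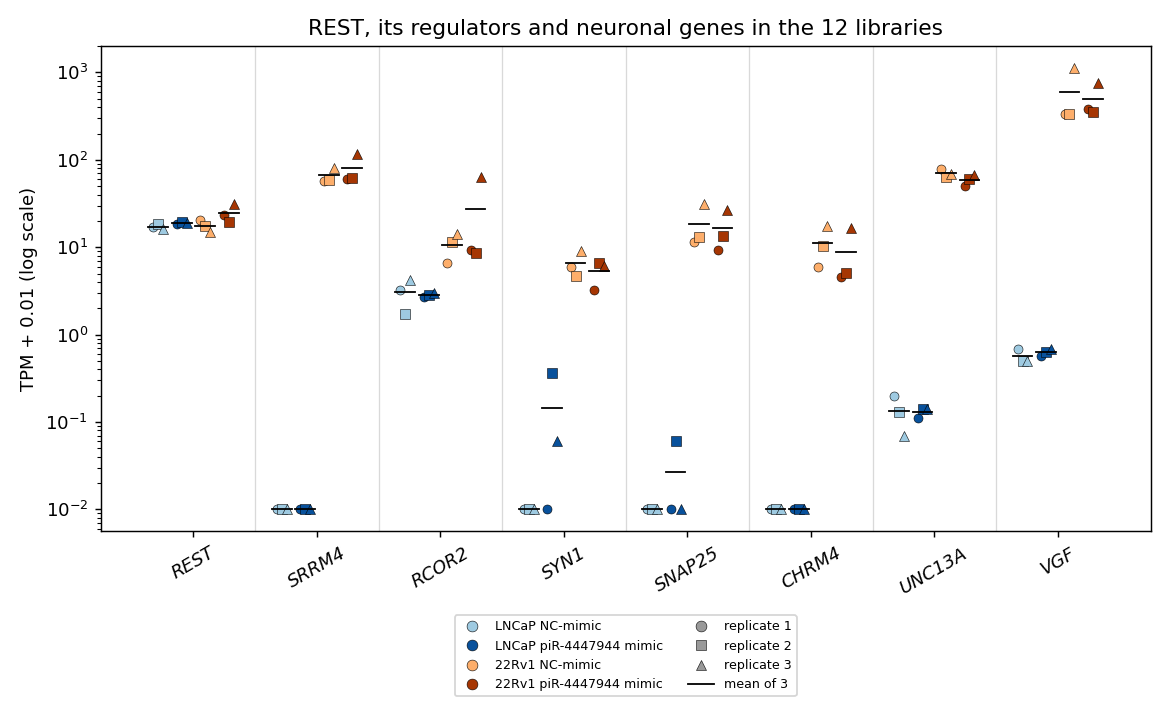
TPM of REST, its regulators SRRM4 and RCOR2, and genes of the REST-repressed and granule lists in each library, plotted as TPM + 0.01 on a log axis with 1 point per library and a bar at the mean of 3. REST lies between 14.9 and 31.4 TPM in both lines, whereas SRRM4 and CHRM4 are at 0 in all LNCaP libraries and VGF reaches 1124 TPM in 22Rv1.

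The luminal markers ran against the granule genes in part, with 2 of 10 higher and 6 lower in 22Rv1 with each mimic. Of all genes 30.9% were called higher and 27.5% lower with NC-mimic, and 28.2% and 24.2% with the mimic. Without replicate 3 of 22Rv1 the counts were 3 and 6 with NC-mimic and 2 and 7 with the mimic. The shares of all genes were then 33.7% and 32.5% with NC-mimic and 35.4% and 34% with the mimic. KLK3 differed by a log2 fold change of -5.30, SLC45A3, a prostate transporter, by -2.38 and KLK2 by -1.99. KRT18, a luminal keratin, was higher in 22Rv1 by 0.31. Of the 8 markers of basal, stromal and white blood cells, 2 were tested with NC-mimic. Both were lower in 22Rv1, COL1A1 at 7.67 against 33.3 TPM and CD68 at 1.03 against 2.84 TPM. With piR-4447944 mimic neither passed the test, COL1A1 at 10.7 against 31.8 TPM and CD68 at 2.03 against 3.05 TPM, whereas both were called lower without replicate 3 of 22Rv1. The list summed to 33.4 to 42.5 TPM in LNCaP and 6.55 to 16.8 TPM in 22Rv1 with NC-mimic. With piR-4447944 mimic the sums overlapped, at 27.1 to 44.6 TPM and 6.31 to 27.9 TPM, and the part of these genes in the other differences was not tested. Each library came from a cultured cell line, so these values were read as transcript levels in that line. They were not read as the presence of basal, stromal or white blood cells. In bulk RNA, fewer cells that express a gene and less RNA per cell cannot be told apart.

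The comparison the study was built for is piR-4447944 mimic against NC-mimic. In LNCaP, where 2 of the 9 genes passed the low-count filter, 0 were called, as were 0% of the 16244 genes tested. SYP gave a log2 fold change of 0.34 (SE 0.38, unadjusted p = 0.380) and REST one of -0.01 (SE 0.08, unadjusted p = 0.912). The study called genes at an unadjusted p under 0.05 with a log2 fold change of more than 0.2 either way. It had shrunk the fold changes to limit the variance at low counts, and it reported genes that changed in both lines. The rule counted here leaves out both steps, which loosens it, but takes p-values from edgeR where the study used DESeq2. With the DESeq2 Wald test and no low-count filter, 298 genes met it in LNCaP against 361 by edgeR. In 22Rv1 these counts were 438 and 250, so the rule counted here is not looser than the study's throughout. Neither SYP nor REST reached it in LNCaP by edgeR, and 2.22% of all genes did. For the 7 genes left out of the fit, the counts of 0 to 15 per group gave no detectable difference, for example 3 against 7 counts of CHGA, a ratio of 2.67 with an interval of 0.609 to 15.99.

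In 22Rv1 the mimic likewise gave 0 called genes of the 7 tested, against 0% of 16898. By edgeR 0 met the study's rule, against 1.48% of all genes, whereas CHGA met it with DESeq2, as given below. SYP had a log2 fold change of 0.02 (SE 0.12), CHGB of 0.06 (SE 0.41), SCG2 of 0.22 (SE 0.39), SCG3 of -0.21 (SE 0.17) and NKX2-1 of 0.37 (SE 0.94). Without both replicate 3 libraries SYP was at 0.05 (SE 0.11), CHGB at 0.03 (SE 0.14) and SCG2 at 0.24 (SE 0.41), and 0 of 7 were called or met the study's rule, which 4.57% of all genes then met. Of these SYP was measured most closely, at 91.9 ± 8.72 CPM with NC-mimic against 93.2 ± 1.21 CPM with piR-4447944 mimic (SD, n = 3).

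CHGA had the largest estimate, a log2 fold change of -2.01 (SE 1.03, edgeR unadjusted p = 0.0919, adjusted p = 0.999). Its values were 1.64, 1.68 and 17.2 CPM in the NC-mimic libraries and 1.17, 0.836 and 3.11 CPM in the mimic libraries, so CPM was lower with the mimic in 3 of 3 pairs of the same number, while in TPM the pair of replicate 2 went the other way (1.34 and 1.78 TPM). Whether 22Rv1 libraries of the same number are true pairs is not established. With a replicate block that treats them so, the value was -1.40 (SE 0.50, edgeR unadjusted p = 0.0301, adjusted p = 0.869). This met the study's rule, as 2.49% of all genes then did. With DESeq2, the tool of the study, but without its shrinkage of fold changes, the value was -2.01 (unadjusted p = 0.0169, adjusted p = 1.000). That met the study's rule without the shrinkage, as 438 of 28720 genes (1.53%) did. This share is over all genes with any count, so it cannot be set against the edgeR shares, which are over genes that passed the low-count filter. Without both replicate 3 libraries, a choice made after the data were seen, it was -0.72 (SE 0.67, unadjusted p = 0.301), and without NC-mimic replicate 3 alone it was 0.03. The size of the CHGA estimate thus turned on NC-mimic replicate 3.

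REST in 22Rv1 had a log2 fold change of 0.41 (SE 0.19, unadjusted p = 0.0692, adjusted p = 0.999). It stood at 108.6, 92.3 and 80.1 CPM in the NC-mimic libraries and at 116.1, 101.6 and 156.8 CPM in the mimic libraries. By replicate number it was higher with the mimic in 3 of 3, though pairing by number is not established. The groups overlapped, and an exact two-sided permutation test gave p = 0.2. In a fit of all 12 libraries its unadjusted p was 0.0214 (adjusted p = 0.731), and without both replicate 3 libraries the value was 0.12 (SE 0.11). For NKX2-1 the sign itself turned on replicate 3, with 2.60, 1.94 and 7.42 CPM against 1.51, 1.39 and 12.7 CPM, a value of -0.64 (SE 0.55) without both replicate 3 libraries, and -0.12 (SE 0.41) with the replicate block.

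**Figure D4:**
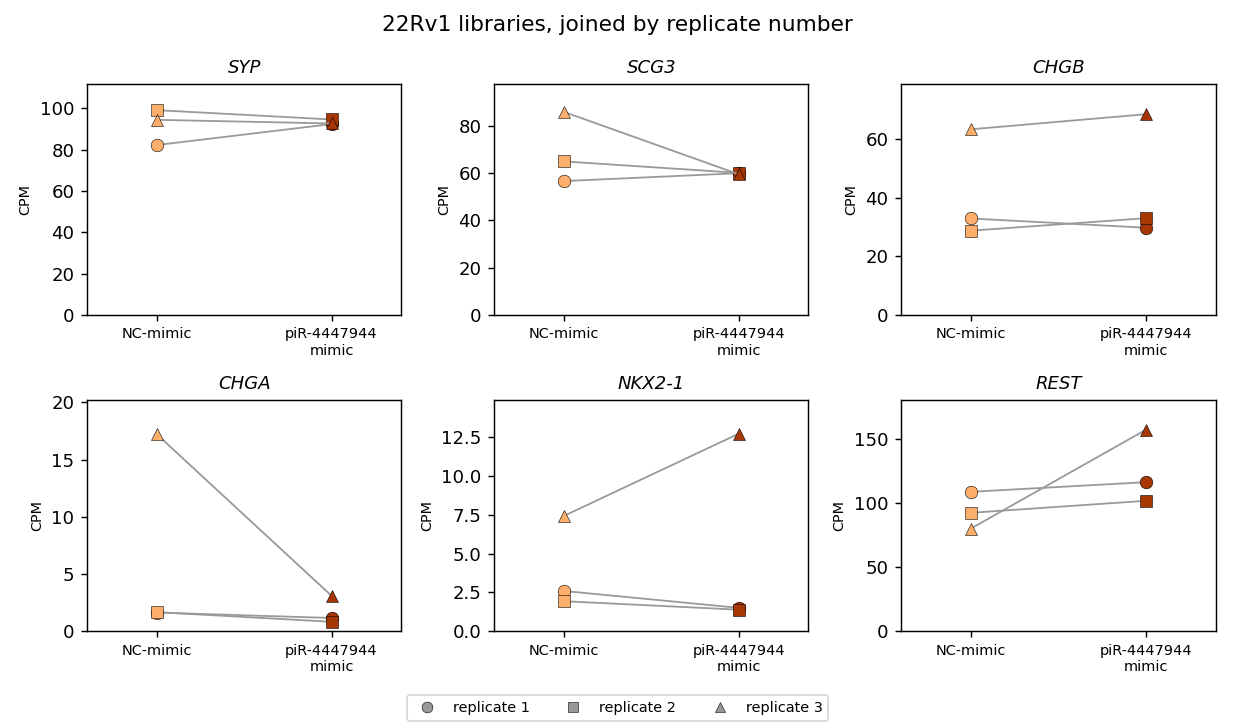
CPM of 6 genes in the 22Rv1 libraries with NC-mimic (left) and piR-4447944 mimic (right) of each panel, on axes that start at 0, with 1 point per library and lines joining libraries of the same replicate number. SYP stays between 82.2 and 99.1 CPM, replicate 3 is highest in CHGB, CHGA and NKX2-1, and CHGA falls from 17.2 to 3.11 CPM in that replicate.

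Of the lists, 0 genes were called for the mimic in either line by edgeR. By the study's rule GRIN1 was met in LNCaP, at 11.9, 11.6 and 13.2 CPM with NC-mimic and 15.4, 12.9 and 16.3 CPM with the mimic (log2 fold change 0.28, SE 0.13, unadjusted p = 0.0499). KLK3 and KLK2 met it in 22Rv1. Of all genes 2.22% met the rule in LNCaP and 1.48% in 22Rv1. KLK3 was at 40.1, 50.4 and 48.4 CPM against 27.2, 37.5 and 17.4 CPM (-0.76, SE 0.28, unadjusted p = 0.0287) and KLK2 at 72.2, 96.3 and 89.4 CPM against 49.3, 77.7 and 52.6 CPM (-0.53, SE 0.21, unadjusted p = 0.0394). KLK3 was lower in all 3 mimic libraries without overlap. KLK2 overlapped between the groups and was lower in 3 of 3 pairs of the same number. With the replicate block KLK3 gave -0.82 (SE 0.23, unadjusted p = 0.0113) and KLK2 -0.55 (SE 0.14, unadjusted p = 0.006595), both at an edgeR adjusted p of 0.869. In that fit 2.49% of all genes met the rule. Without both replicate 3 libraries KLK3 and KLK2 gave -0.47 (SE 0.17, unadjusted p = 0.0141) and -0.40 (SE 0.18, unadjusted p = 0.0514). SCN2A (0.75) and CHRM4 (-0.79) of the REST-repressed list, named after their values were seen, then met the study's rule. In that fit 4.57% of all genes met it, and 0 list genes were called. Among the neuroendocrine, granule and REST-partner lists 0 genes met that rule by edgeR in either line, nor in 22Rv1 without both replicate 3 libraries.

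Whether the effect of the mimic differed between the lines was tested as an interaction. None of the 7 genes tested was called, against 0% of 18720 genes, and 0 of 7 had an unadjusted p under 0.05 by edgeR. CHGA gave -3.30 (SE 1.87, unadjusted p = 0.103) and REST 0.42 (SE 0.22, unadjusted p = 0.0818), as 22Rv1 minus LNCaP on the log2 scale. Of the 7 genes 5 passed the low-count filter in 22Rv1 and not in LNCaP, so for these 5 the test could show little. The LNCaP part of CHGA rests on 3 against 7 counts. Its value ranged from -6.32 to -1.27 on leaving out single libraries.

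The 3′UTRs of the 9 genes were searched for ATAGCTT, the complement of bases 2 to 8 of piR-4447944, which a target would need for seed-like pairing. It was found in the canonical 3′UTRs of 1979 of 19550 genes (10.1%) and of 2 of the 9, SCG3 and REST. The sites are shown with the match in capitals.
SCG3: aaaacataatATAGCTTaaaacacttc
SCG3: tggttaaaacATAGCTTtcttcccgta
SCG3: tcaaagtctcATAGCTTtggaggagcc
REST: actaaatcagATAGCTTttacagtttc
The 3 SCG3 matches start at bases 49, 152 and 477 of a 3′UTR of 1500 bases, and the REST match at base 3286 of 3692. SCG3 with its 3 matches had a log2 fold change with the mimic of -0.21 (SE 0.17) in 22Rv1, and -0.01 (SE 0.11) without both replicate 3 libraries, and REST with 1 match had 0.41 in 22Rv1 and -0.01 in LNCaP. None of these was called by edgeR at an adjusted p under 0.05. A match is a description of letters and no test of pairing.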

How the data were processed

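RNA-seq libraries of 2 PCa lines with 2 mimics were analysed from the gene tables the authors deposited, which hold expected counts, TPM and effective lengths (values in bases, used for REST only). Per the labels and the paper's methods, reads were aligned to hg38 with STAR 2.7.1a and quantified with RSEM 1.3.0, and the study tested with DESeq2 1.34.0 in R 4.1.1. The annotation release and strand setting are not given in the sources used here. A series-wide TPM table was not used.

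Expected counts were rounded, and edgeR 4.0.16 (under R 4.3.3, with TMM, filterByExpr and the quasi-likelihood test) was run on them, with p-values adjusted by Benjamini-Hochberg over all genes of a fit and called under 0.05. CPM used TMM-scaled library sizes. Ratios of summed counts carry exact 95% counting intervals, with a limit of 3 counts for a group at 0. Single genes were compared by exact permutation. Tests were checked on simulated data. Positions and sequences came from hg38 with GENCODE and from RefSeq promoter windows, which covered 5 of the 9 genes.

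The markers and the 7 gene lists were chosen with earlier results of these data known. Named genes were the 9 markers, the 3 genes of each list with the largest change each way between the lines with NC-mimic (adjusted p under 0.05, mean of at least 1 TPM), list genes meeting the study's rule, KLK3, KRT8, and the 2 genes most like each marker. Another item that this rule names is not reported here.

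Whether replicate numbers pair libraries was checked by correlating deviations from group means across genes. In 22Rv1 the correlations were 0.198, 0.167 and 0.355 for replicates 1, 2 and 3, and same-numbered libraries were treated as pairs on this evidence alone. It does not establish pairing. Each gene was centred on its group mean, so a deviation shared by both replicate 3 libraries also raises the correlations of replicates 1 and 2. Libraries of unlike number were not correlated. In LNCaP the correlations were 0.021, 0.005 and 0.189, and between the lines 0.005 to 0.104. No pairing was taken there, although 0.189 exceeds the 0.167 of 22Rv1. Alternatives were DESeq2 1.42.0 (size factors and Wald test), a replicate block, no filter, a minimum of 10 counts in each library, one fit of all 12 libraries, limma 3.58.1 on log2(TPM + 1) and log2(TPM + 0.1) for genes of at least 1 TPM in 3 libraries, and leaving out each library. Leaving out both 22Rv1 replicate 3 libraries was added after the data were seen. Fold changes on the log2(TPM + pseudocount) scale understate the change of low genes.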

Additional observations from a re-analysis of the deposited data

How the results depend on the processing

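No marker was called for the mimic in either line, or for its difference between the lines, under any alternative run. The 6 markers called between the lines with NC-mimic stayed at 6 on leaving out any library and fell to 1 with at least 10 counts in every library, where only SYP and REST, 2 genes, were left to test. With piR-4447944 mimic the 7 called fell to 2 of 2 under that filter, to 4 of 5 with limma on log2(TPM + 1) and 4 of 5 with log2(TPM + 0.1), and were 6 to 7 on leaving out a library. The limma scale moved the median of all genes between the lines with NC-mimic to -0.11 (pseudocount 1) and -0.12 (0.1) from 0.01.

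Mimic effects changed sign as follows, none past the threshold, and the cause was not tested. REST in LNCaP was 0.128 and 0.134 under the limma scalings and -0.0689 to 0.0312 over left-out libraries. In 22Rv1 the left-out range was -2.75 to 0.0262 for CHGA, -0.40 to 0.50 for CHGB, -0.0644 to 0.0750 for SYP, -0.0336 to 0.51 for SCG2 and -1.44 to 1.17 for NKX2-1, which was also -0.12 with the replicate block and -0.64 without both replicate 3 libraries. REST between the lines with NC-mimic ranged from -0.0309 to 0.19. With log2(TPM + 1) the interaction was -0.10 for SCG3 and 0.0533 for NKX2-1. The replicate block raised the genes meeting the study's rule from 361 to 508 in LNCaP and from 250 to 420 in 22Rv1, and beside CHGA changed no call of a marker. In LNCaP the counts of 0 to 15 limit what 7 of the 9 genes can show.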

Other observations

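The genes whose profile over the 12 libraries lay closest to each marker were listed by the root mean square difference of centred log2 CPM, among 18719 genes. The measure is dominated by the contrast of the lines, so the list is a description only. CHGB lay closest to AVPR1A, a vasopressin receptor (0.221), which had a mean of 0.01 TPM in LNCaP and 10.7 TPM in 22Rv1 with NC-mimic. SCG3 lay closest to SLC6A15, a neutral amino acid transporter of neurons (0.335), at 0 and 15.9 TPM, and then to GPAT2, a mitochondrial acyltransferase (0.353), at 0.04 and 48.1 TPM. SCG2 had MAP2, a neuronal microtubule protein, in second place (0.303), at 3.01 and 29.4 TPM. NKX2-1 lay closest to ETV5, an ETS factor (0.369), and to MAEL (0.439), a germline gene of the piRNA pathway, which was listed at 0 TPM in LNCaP and had a mean of 2.05 TPM in 22Rv1 with NC-mimic and 2.66 TPM with piR-4447944 mimic. SYP lay closest to FAM83B (0.270) and BICC1 (0.317), and CHGA to BCAN (0.552) and ITM2A (0.558), the poorest likeness of the set. REST lay closest to FAM160A1 (0.0898) and NPIPA1 (0.1004), the latter one of a family of near-identical copies whose counts are uncertain.

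The replicate 3 libraries of 22Rv1 also differed in neuroendocrine genes outside the 9. ENO2, neuron-specific enolase, stood at 182, 199 and 267 TPM with NC-mimic and at 159, 203 and 918 TPM with piR-4447944 mimic, against 52.7 to 57.6 TPM in all LNCaP libraries. CALCA stood at 164.2 and 67.5 TPM in the replicate 3 libraries and at 4.0 to 5.82 TPM in the other 4. RCOR2 reached 64.4 TPM in piR-4447944 mimic replicate 3 and 6.52 to 14.2 TPM in the other 5. DDC was lowest in replicate 3, at 1.49 and 2.97 TPM against 9.69 to 11.6 TPM. ENO2 was named after its values were seen.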
